A study of Mus musculus with 3 samples.

Results

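The 6 genes described here, Nos2, Gch1, Ass1, Slc7a2, Arg1 and Arg2, carry out nitric oxide production and arginine metabolism in mouse macrophages. They were taken by name from the GENCODE M1 annotation of mm9, and all 6 were found among the 22350 protein-coding genes on chromosomes 1 to 19 and X. The libraries were made by ChIP-Seq, which counts DNA fragments bound by a protein, with an antibody (Abcam ab5131) to RNA polymerase II (Pol_II) phosphorylated at Ser5 of the repeats in its carboxy-terminal domain (Ser5 below). There were 3 libraries, 1 of each kind: Ser5 from untreated macrophages, Ser5 from macrophages given lipopolysaccharide (LPS) at 10 ng/ml for 2 h, and DNA of untreated macrophages taken before the precipitation (input). All came from female Fvb mice (Fvb/Hsd in the study's methods), whose bone marrow cells were differentiated with L929-conditioned medium and taken on the seventh day, and the labels do not give the number of mice. The labels and the study's text on these Ser5 libraries name LPS alone, whereas a picture of the Ser5 data in the study names LPS with gamma interferon; which holds could not be settled from the files, and every comparison called LPS here may be one of both agents. Because each condition was 1 library, no difference has a replicate check and no test was made. A gene is called higher or lower where its Ser5 density differed by 2 times or more and the 2 Ser5 libraries together held 10 tags or more, and all intervals are 95% intervals for counting error alone.

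Nitric oxide synthases oxidise arginine to nitric oxide and citrulline, and the inducible enzyme encoded by Nos2 is the one that macrophages make in response to microbial products. Gch1 encodes GTP cyclohydrolase, which begins the synthesis of tetrahydrobiopterin, a cofactor of nitric oxide synthases; Ass1 encodes argininosuccinate synthase, which begins the return of citrulline to arginine; and Slc7a2 encodes the cationic amino acid transporter CAT2, which brings arginine into the cell. The arginases use the same substrate and convert it to ornithine and urea: the Arg1 enzyme is cytosolic and is well known from macrophages exposed to interleukin-4, and the Arg2 enzyme is mitochondrial. Ser5 phosphorylation marks Pol_II that has begun transcription, and Ser5 signal is usually highest near transcription start sites (TSS) and lower along the gene.

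Promoter sequences are shown for Gch1 and Ass1 because the RefSeq promoter table used here held only these 2 of the 6 genes. Both genes already carried a strong Ser5 peak at the TSS in untreated cells. Each runs from 250 bases before the RefSeq start to 50 bases after it (RefSeq, GRCm38.p6, strand of the gene) and each occurs once, unaltered, in mm9, at chr14:47809039-47809338 for Gch1 and at chr2:31325540-31325839 for Ass1. That table held no promoter of Nos2, Slc7a2, Arg1 or Arg2. Capitals mark matches to 8 motifs searched on both strands: NF-kB, searched by its usual consensus, the AP-1 motif TGANTCA, the C/EBP motif TTGCNNAA, the ISRE core (a pair of GAAA blocks with 2 bases between them), the GAS motif TTCNNNGAA, a STAT6-type motif (TTC and GAA with 4 bases between them), the TATA box TATAAA and the GC box GGGCGG.
Gch1 promoter: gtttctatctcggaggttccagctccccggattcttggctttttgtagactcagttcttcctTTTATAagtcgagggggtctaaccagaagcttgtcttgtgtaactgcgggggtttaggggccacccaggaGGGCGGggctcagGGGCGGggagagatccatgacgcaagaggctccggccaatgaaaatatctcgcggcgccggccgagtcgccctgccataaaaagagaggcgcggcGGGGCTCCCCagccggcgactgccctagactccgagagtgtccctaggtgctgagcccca
Ass1 promoter: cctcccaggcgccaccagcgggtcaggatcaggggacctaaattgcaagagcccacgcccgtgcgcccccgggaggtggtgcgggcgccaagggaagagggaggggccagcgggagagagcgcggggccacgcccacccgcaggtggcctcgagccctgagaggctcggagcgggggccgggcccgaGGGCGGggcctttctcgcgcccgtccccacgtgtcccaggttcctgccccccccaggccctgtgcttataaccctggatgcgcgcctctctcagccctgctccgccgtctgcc
The Gch1 promoter held 1 NF-kB match at bases 241 to 250, which 4.51% of the 32851 RefSeq promoters of this length also held, 1 TATAAA match on the opposite strand at bases 63 to 68 (13.6% of promoters) and 2 GGGCGG matches (35.7% of promoters). The Ass1 promoter held 1 GGGCGG match at bases 188 to 193 and none of the other motifs. GC content was 60.3% for Gch1 and 74% for Ass1.

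A pair of intergenic Ser5 peaks upstream of Arg1 and Nos2, chosen after their values were seen, is also shown: each was called in 1 Ser5 library and lay outside every annotated gene. The central 300 bases of an LPS peak upstream of Ass1, inside the gene Hmcn2, were searched as well and are not printed. They held 1 TATAAA match at bases 47 to 52 and none of the other motifs. The central 300 bases are given from mm9, plus strand, at chr10:24650035-24650334 for Arg1 and chr11:78700495-78700794 for Nos2, with motif matches in capitals.
Arg1 upstream peak: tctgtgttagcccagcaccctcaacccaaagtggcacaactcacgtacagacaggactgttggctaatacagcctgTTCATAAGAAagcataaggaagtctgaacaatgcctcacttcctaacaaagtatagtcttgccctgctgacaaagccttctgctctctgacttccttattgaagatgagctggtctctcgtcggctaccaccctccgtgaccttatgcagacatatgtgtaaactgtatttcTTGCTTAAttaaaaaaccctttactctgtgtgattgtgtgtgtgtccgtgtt
Nos2 upstream peak: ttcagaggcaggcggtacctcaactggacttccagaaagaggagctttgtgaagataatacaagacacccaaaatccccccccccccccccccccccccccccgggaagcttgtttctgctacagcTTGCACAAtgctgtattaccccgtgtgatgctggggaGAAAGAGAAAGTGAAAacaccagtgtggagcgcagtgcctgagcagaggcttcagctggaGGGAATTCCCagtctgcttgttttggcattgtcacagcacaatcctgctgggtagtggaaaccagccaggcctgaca
The Arg1 sequence, from a peak called in untreated cells, held the STAT6-type motif at bases 77 to 86 and TTGCNNAA at bases 249 to 256, motifs that the same window of untreated Ser5 peaks held in 6.13% and 10.5% of 53467 cases. The Nos2 sequence, from a peak called after LPS, held an NF-kB match at bases 224 to 233 that reads the same on both strands, TTGCNNAA at bases 127 to 134, and 2 overlapping ISRE core matches at bases 164 to 173 and 170 to 179. Of 49371 LPS peaks, 4.56% held an NF-kB match, 11.4% TTGCNNAA and 3.88% an ISRE core in that window.

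On chromosomes 1 to 19 and X the untreated Ser5 library held 7616771 tags, the LPS library 6249819 and the input library 7533308. Levels are given as TPM per kb, the tags per 1000000 tags of the library on those chromosomes divided by the length of the region. The libraries were set beside lists of genes that were chosen with earlier results of these data known. All 10 LPS-response genes of a check list (Tnf, Il1b, Ccl5 and others) were at least 2 times higher in the library labelled LPS, by 2.62 to 186 times at the TSS. At the TSS, 9 of 9 macrophage markers were at least 2 times the input in untreated cells and 7 of 9 after LPS, when Mrc1 was at 0.742 and Itgam at 1.97 times the input; 3 of the 9 were called lower after LPS and 2 higher. By contrast, 25 markers of other cell types had a median of 0.270 times the input in untreated cells and 0.301 times after LPS. Genes not known to be used by macrophages thus mostly had less Ser5 than input tags; 2 of the 25 were at or above 2 times the input at the TSS in untreated cells and none after LPS, and the T cell gene Cd3d stood at 5.34 times the input along its gene body.

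Ser5 was higher after LPS along 4 of the 6 genes. In the gene body, from 1 kb downstream of the TSS to the end of the gene, Nos2, Slc7a2, Ass1 and Gch1 were called higher after LPS and none of the 6 was called lower, where 6.53% of the 16444 protein-coding genes with enough tags were higher and 12.1% lower by that rule. At the TSS ±1 kb, the same 4 genes and Arg2 were at least 2 times higher, against 5.58% of 12535 genes, and Arg1 was at least 2 times lower, against 14.1%. The 1 lower gene in 6 is close to that background and is no result about the set. The median ratio of LPS to untreated over all these genes was 0.886 in gene bodies and 0.831 at the TSS. Scaling to the tags outside peaks in place of all tags raised every ratio by 0.11 on the log2 scale without changing the counts among the 6 genes. The shares of all genes did change, to 7.64% higher and 9.77% lower in the body and 6.36% higher and 11.8% lower at the TSS. In a bulk sample, more Ser5 per cell and more cells that carry it cannot be told apart.

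**Figure D1:**
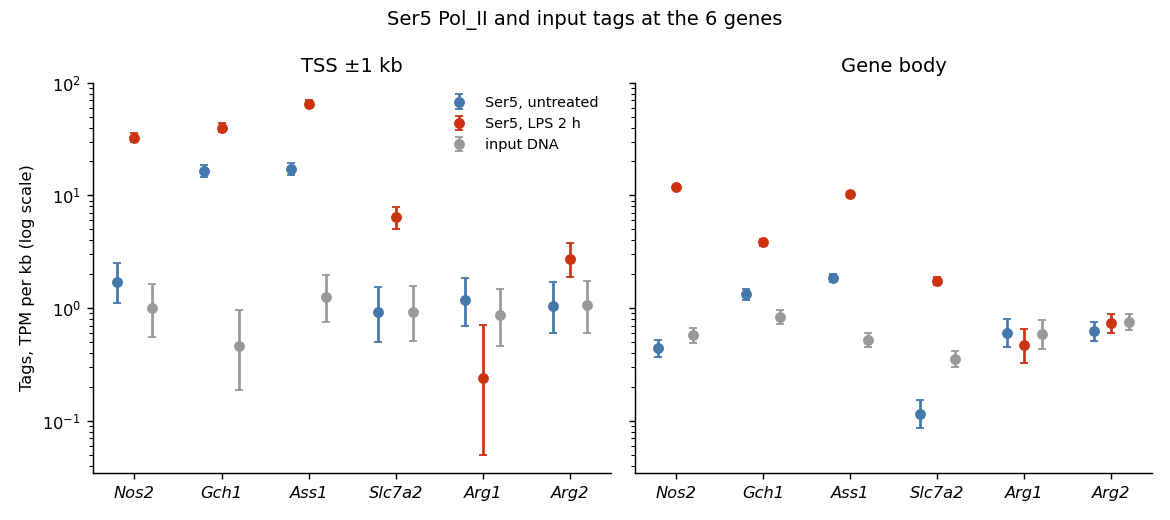
Tag density (TPM per kb, log axis) of the 6 genes at the TSS ±1 kb (left) and in the gene body (right) in untreated Ser5, Ser5 after LPS and input DNA; points are single libraries and bars are 95% Poisson intervals. After LPS, Nos2 reached 32.6 TPM per kb at the TSS from 1.71, while Arg1 lay at 0.240 from 1.18.

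**Figure D2:**
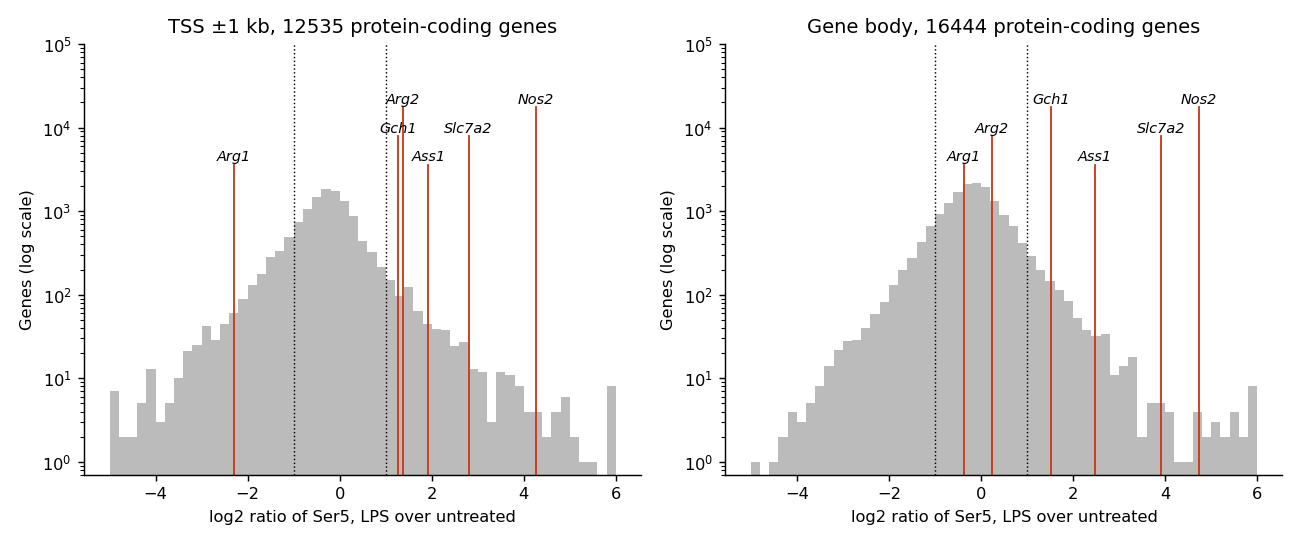
Number of protein-coding genes (log axis) by log2 ratio of Ser5 after LPS to untreated, at the TSS ±1 kb (left) and in the gene body (right), in bins of 0.2, with values beyond the axis placed in the end bins; dotted lines mark a ratio of 2 in either direction and red lines the 6 genes. In the gene body Nos2 lay at 4.74 and Slc7a2 at 3.92, and Arg1 lay near the middle at -0.37.

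Nos2, the inducible nitric oxide synthase (ENSMUSG00000020826.6, chr11:78734289-78773756, plus strand, 39.5 kb), had the largest ratios of the 6 genes. At the TSS it held 26 tags in untreated cells, 408 after LPS and 15 in input, which are densities of 1.71 (1.11 to 2.50), 32.6 (29.5 to 35.9) and 0.995 TPM per kb. LPS over untreated was 19.1 (12.9 to 29.6), higher than that of 99.8% of genes. Untreated Ser5 at the Nos2 TSS was 1.71 times the input, with an interval (0.875 to 3.48) that includes 1. It was 2.84 times (1.23 to 7.35) in the window of 500 bp on each side, but 1.31 times (0.753 to 2.29) in that of 2 kb. With 1 tag per position and strand it was 1.73 times (0.864 to 3.60), and with tags moved 75 bp 1.77 times (0.883 to 3.68). Scaling to tags outside peaks gave 3.28 times (1.67 to 6.66), and this scaling also raised Arg1, to 2.62 times (1.21 to 5.82). A short peak of 309 bases was called at the Nos2 TSS in untreated cells.

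Along the Nos2 gene body, 129 tags in untreated cells stood against 2824 after LPS and 166 in input, a ratio of 26.7 (22.4 to 32.1). After LPS, divided into 4 equal parts from the 5′ to the 3′ end, the body held 809, 651, 681 and 683 tags, the first part lying above the others beyond their intervals. Untreated tags were distributed otherwise, with 30, 15 and 7 in the first 3 parts and 77 in the last. Without the last part, an alternative added after the data were seen, the ratio was 50.2 (38.1 to 67.4), from 52 and 2141 tags.

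The 3′ end of Nos2 faces another gene. Lgals9, which encodes galectin-9 and is transcribed toward Nos2 from the other strand, ends 2719 bases beyond it, and its own body held 347 untreated and 801 LPS tags and was 2.81 times higher after LPS (2.48 to 3.20). In the 5 kb after the Nos2 end there were 130 untreated and 424 LPS tags, a ratio of 3.97. Tags carry no information on which gene a polymerase had transcribed, so Ser5 of Nos2 and of Lgals9 cannot be told apart in this interval.

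The authors' peaks followed the same course at Nos2. In untreated cells 3 peaks covered 0.818% of the gene, and after LPS 24 peaks covered 93.5% of it, the longest being 5880 bases and reaching across the TSS. The upstream peak printed above (chr11:78700217-78701073), with its centre at -33.6 kb from the TSS, held 9 tags in untreated cells, 57 after LPS and 9 in input. Since it was selected as a peak of the LPS library, its ratio of 7.72 (3.79 to 17.7) is a description. Between 1 and 5 kb before the TSS, 16 untreated and 34 LPS tags were counted, beside 20 in input.

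**Figure D3:**
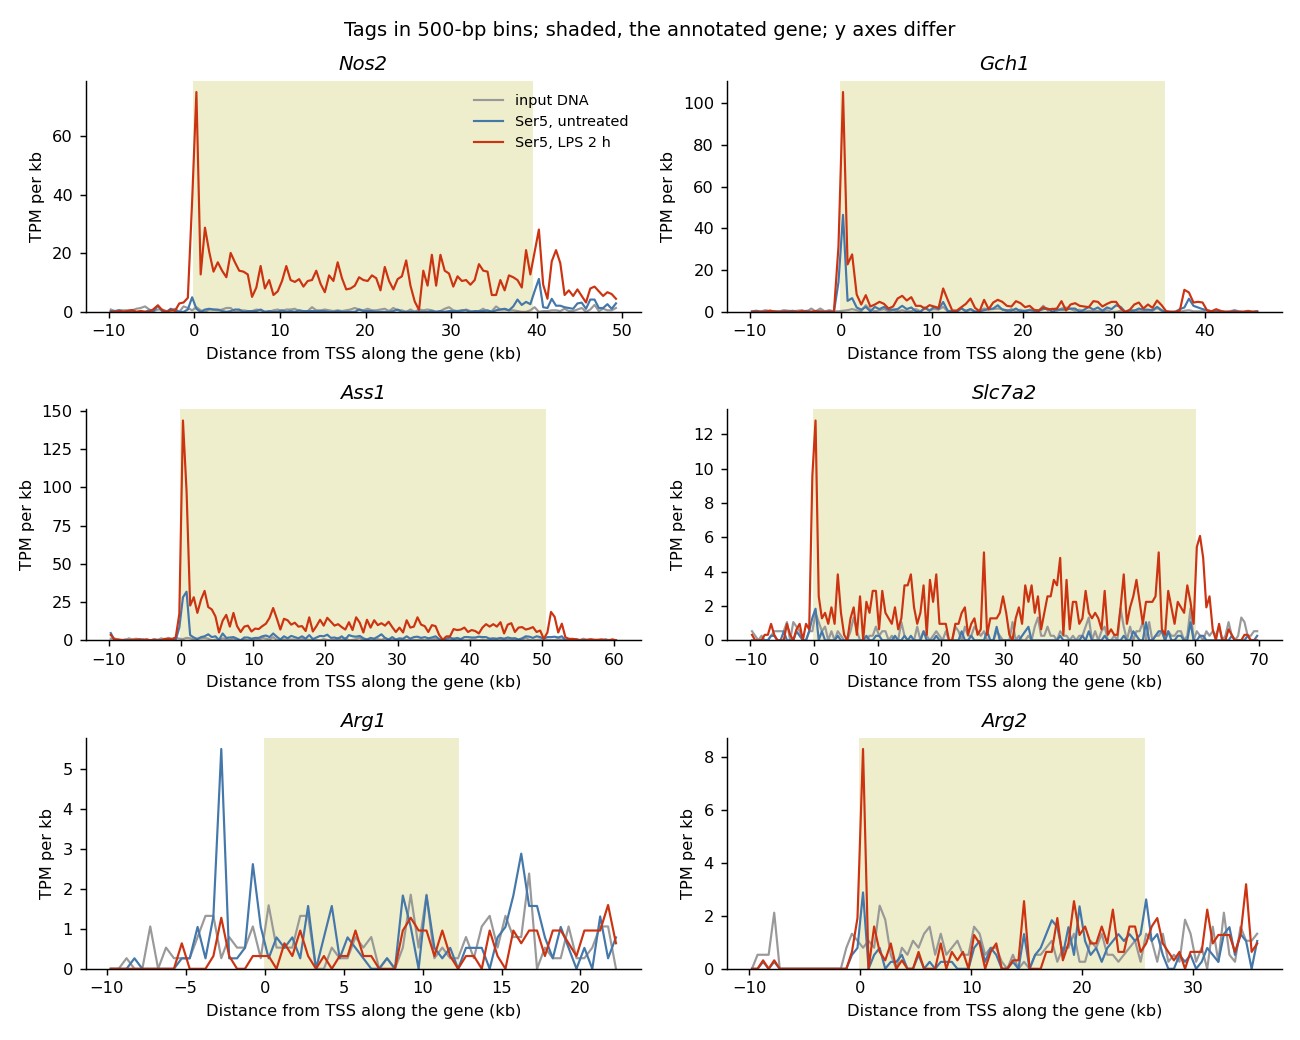
Tag density (TPM per kb, linear axes that differ between panels) in bins of 500 bp against distance from the TSS along each gene (kb), from 10 kb before the gene to 10 kb after it, for untreated Ser5, Ser5 after LPS and input; the annotated gene is shaded. After LPS the signal runs through the whole of Nos2, Ass1 and Slc7a2, and at Arg1 the highest untreated bin lies about 3 kb before the TSS.

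Gch1 (ENSMUSG00000037580.9, chr14:47773570-47809088, minus strand, 35.5 kb), for the first enzyme of tetrahydrobiopterin synthesis, was already marked by Ser5 in untreated cells. Its TSS held 251 tags in untreated cells, 498 after LPS and 7 in input, or 16.5 (14.5 to 18.6), 39.8 (36.4 to 43.5) and 0.464 TPM per kb. Untreated Ser5 was 35.5 times the input (17.0 to 89.1), and Ser5 was 2.42 times as high after LPS (2.07 to 2.83). The gene thus started far above Nos2 and gained less.

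In the Gch1 body 348 tags in untreated cells stood against 825 after LPS and 217 in input, a ratio of 2.89 (2.55 to 3.28). Over the same 4 parts the ratio was 3.31 in the first, 2.97 and 2.93 in the middle ones and 2.25 in the last, and the first and last intervals (2.67 to 4.13 and 1.74 to 2.93) overlap. Peaks rose from 3, covering 4.57% of the gene, to 23, covering 30.3%. Upstream of the gene there was little signal: between 1 and 5 kb before the TSS 5 untreated, 2 LPS and 22 input tags were counted.

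Ass1 (ENSMUSG00000076441.4, chr2:31325727-31376192, plus strand, 50.5 kb), for argininosuccinate synthase, had the highest TSS level of the 6 genes in both Ser5 libraries, though in untreated cells its interval overlapped that of Gch1. The TSS held 261 tags in untreated cells, 814 after LPS and 19 in input, or 17.1 (15.1 to 19.3), 65.1 (60.7 to 69.7) and 1.26 TPM per kb. Ser5 after LPS was 3.80 times the untreated level (3.30 to 4.39). After LPS 99.6% of genes had a lower TSS level than Ass1.

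The Ass1 body gained more than its TSS. It held 698 tags in untreated cells, 3179 after LPS and 194 in input, a ratio of 5.55 (5.11 to 6.03), and peaks covered 6.06% of the gene in untreated cells and 89.7% after LPS. The ratio was 7.04 (6.05 to 8.23) in the first of the 4 parts and between 4.57 and 5.41 in the other 3. Signal went on past the annotated end, where the next 5 kb held 48 untreated and 186 LPS tags, a ratio of 4.72 (3.42 to 6.63), and then fell to 4 and 9 tags between 5 and 10 kb.

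Ser5 peaks also lay upstream of Ass1, inside the gene Hmcn2, whose own TSS held 1 untreated and 5 LPS tags. The LPS peak centred at -23.3 kb from the Ass1 TSS held 53 untreated and 161 LPS tags, with 13 in input, and its ratio of 3.70 is a description, as it was selected in the LPS library. Another, at -27.4 kb, held 45 and 68 tags. A peak at -10.1 kb held 25 and 20 tags, so that these upstream regions did not share 1 ratio.

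Slc7a2 (ENSMUSG00000031596.9, chr8:41947750-42007662, plus strand, 59.9 kb), for the arginine transporter, had little Ser5 in untreated cells and Ser5 along its full length after LPS. Its body held 52 tags in untreated cells, 644 after LPS and 157 in input, or 0.116 (0.0865 to 0.152), 1.75 (1.62 to 1.89) and 0.354 TPM per kb. Untreated Ser5 was 0.328 times the input, near the median of 0.262 for gene bodies of 21 markers of other cell types. LPS over untreated was 15.1 (11.4 to 20.4), higher than that of 99.8% of genes.

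At the Slc7a2 TSS 14 tags in untreated cells, 80 after LPS and 14 in input gave a ratio of 6.96 (3.92 to 13.3). No peak lay within 50 kb of the gene in untreated cells, and after LPS 15 peaks covered 8.17% of it. The antisense lincRNA gene Gm17475 overlaps the first 3252 bases of Slc7a2 and held 9 untreated and 68 LPS tags, and there the Ser5 of both genes cannot be told apart. In the 5 kb after the end of the gene, 2 untreated tags stood against 71 after LPS, a ratio of 43.3 (11.5 to 364).

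Annotated starts further along Slc7a2 did not show a level like that of the main one. The window around the start at 12552 bases held 1 untreated, 16 LPS and 1 input tags, and that at 36042 bases held 0, 20 and 8. These are 1.28 and 1.60 TPM per kb after LPS, close to the 1.75 of the whole body and below the 6.40 of the main TSS.

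Arg1 (ENSMUSG00000019987.8, chr10:24635014-24647276, minus strand, 12.3 kb), for the cytosolic arginase, was low in both Ser5 libraries. It was lower after LPS at its 5′ end and in the 5 kb past its 3′ end. At the TSS 18 tags in untreated cells, 3 after LPS and 13 in input gave 1.18 (0.700 to 1.87), 0.240 (0.0495 to 0.701) and 0.862 TPM per kb. LPS over untreated was 0.203 (0.0383 to 0.696), and 1.91% of genes had a lower one. The call rests on 21 tags, and untreated Ser5 in this window was 1.37 times the input (0.634 to 3.04), an interval that includes 1. With a window of 500 bp on each side the call could not be made, since fewer than 10 tags remained. There 5 untreated and 2 LPS tags gave a ratio of 0.487 (0.0464 to 2.98). Within 1 kb of the TSS, the highest untreated bin of 500 bp was the one furthest upstream, at 2.63 TPM per kb. The bin that begins at the TSS was at 0.263.

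Between 1 and 5 kb before the Arg1 TSS, 36 untreated and 6 LPS tags were counted, a ratio of 0.203 (0.0700 to 0.487), beside 22 in input. Part of these tags lay in the upstream peak printed above (chr10:24649974-24650396), centred at -2.9 kb from the TSS and called in untreated cells alone. Since 24 of the 36 untreated tags of the window lay in this peak, which was selected in the untreated library, the ratio of the window is a description. The peak itself held 24 tags in untreated cells, 3 after LPS and 3 in input, and its ratio of 0.152 is a description too. It was the only upstream peak within 50 kb of Arg1 in either library. In the 5 kb after the Arg1 end, 41 untreated, 15 LPS and 35 input tags were counted, an LPS to untreated ratio of 0.446 (0.229 to 0.823). Med23, on the other strand, ends 1678 bases beyond Arg1 and inside that interval, so Ser5 of both genes cannot be told apart there.

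The Arg1 body did not differ beyond counting error. It held 52 tags in untreated cells, 33 after LPS and 50 in input, a ratio of 0.773 (0.484 to 1.22), and no peak lay in the gene in either library. Both Ser5 levels of the Arg1 body were near the input, at 1.03 times (0.684 to 1.55) and 0.796 times (0.496 to 1.26). These lay above the medians of 0.262 and 0.301 times for gene bodies of 21 markers of other cell types. They lay inside the range of those markers, 0 to 5.34 times in untreated cells and 0 to 3.62 times after LPS. The interval of the whole-body ratio reaches just below 0.5, so a decrease of 2 times is at the edge of what the whole-body counts can show. Without the last of the 4 parts, an alternative added after the data were seen, the ratio was 0.594 (0.324 to 1.05), from 39 untreated and 19 LPS tags. That interval holds both 0.5 and 1.

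Arg2 (ENSMUSG00000021125.6, chr12:80231764-80257288, plus strand, 25.5 kb), for the mitochondrial arginase, was called higher at the TSS and not along the gene. The TSS held 16 tags in untreated cells, 34 after LPS and 16 in input, or 1.05 (0.600 to 1.70), 2.72 (1.88 to 3.80) and 1.06 TPM per kb. LPS over untreated was 2.59 (1.39 to 5.02), so its interval includes values under 2, and 96.3% of genes had a lower ratio. A peak was called at the TSS in both libraries, with scores of 50.27 in untreated cells and 237.71 after LPS, where the score is -10*log10 of the peak's p-value.

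The Arg2 body held 116 tags in untreated cells, 112 after LPS and 139 in input, a ratio of 1.18 (0.899 to 1.54). Ser5 tags were fewer near the 5′ end (12 untreated and 14 LPS tags in the first of 4 parts) than near the 3′ end (50 and 47 in the last), whereas input had 46 in the first and 30 in the last. The gene ends in an overlap of 285 bases with Vti1b on the other strand, whose own TSS held 190 untreated and 135 LPS tags.

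The 6 genes were ordered differently by level and by change. At the TSS after LPS the order was Ass1, Gch1, Nos2, Slc7a2, Arg2 and Arg1, and no neighbours in that order had overlapping intervals. In untreated cells only Ass1 and Gch1 stood apart, and the intervals of the other 4, between 0.919 and 1.71 TPM per kb, overlapped one another. In the gene body after LPS, Nos2 at 11.7 (11.3 to 12.2) and Ass1 at 10.3 (9.93 to 10.6) led, followed by Gch1 at 3.82, Slc7a2 at 1.75, Arg2 at 0.731 and Arg1 at 0.469, the last pair with overlapping intervals. By ratio in the gene body the order was Nos2, Slc7a2, Ass1, Gch1, Arg2 and Arg1, in which only the intervals of Arg2 and Arg1 overlapped.

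The authors' peaks at the TSS ±1 kb were then counted. In untreated cells 4 of 6 genes had one (Nos2, Gch1, Ass1 and Arg2), beside 48.0% of all protein-coding genes, and after LPS 5 of 6 did, with Slc7a2 added, beside 45.9%. Only Gch1 and Ass1 in untreated cells kept a peak with p of at most 1e-10. Arg1 had none in either library.

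The density at the TSS relative to that in the body was lower after LPS at Nos2, 2.78 (2.50 to 3.08) from 3.87 (2.44 to 5.94), and at Slc7a2, 3.66 (2.86 to 4.62) from 7.93 (4.06 to 14.5), with overlapping intervals at both. Of the 129 untreated tags in the Nos2 body, 77 lay in the last of 4 parts, toward Lgals9, and the Nos2 value without that part was not computed. At Ass1 the TSS density relative to the body was 6.33 (5.85 to 6.84) from 9.24 (7.99 to 10.7), with intervals that did not overlap. Gch1 kept the steepest profile, 12.4 (10.5 to 14.7) in untreated cells and 10.4 (9.30 to 11.7) after LPS. At Arg2 the value was 3.72 (2.46 to 5.50) after LPS and 1.69 (0.935 to 2.86) in untreated cells, again with overlapping intervals. Over all genes the median was 5.63 in untreated cells, 5.59 after LPS and 1.41 in input.

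Few other genes of the same pathways were called higher. Of 40 matched genes, 38 had enough tags in the body: 1 was at least 2 times higher, 4 were at least 2 times lower, and the median ratio was 0.754 beside 0.886 over all genes. At the TSS 33 genes were compared, of which 0 were higher and 4 lower, with a median of 0.670 beside 0.831. These shares are near the background of all genes given above and show nothing particular to the lists. The higher gene was Sat1, for spermidine/spermine acetyltransferase, which went from 46 to 93 tags in its body, a ratio of 2.46 (1.71 to 3.59), and whose TSS ratio was 1.09.

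The genes called lower lay in several of the lists. Slc7a7, for a light chain of the transporter that exports arginine from cells, had the lowest body ratio, 0.321 (0.273 to 0.377), from 732 to 193 tags. At the Slc7a7 TSS the ratio was 0.914 (0.395 to 2.06), from 16 to 12 tags. Among tetrahydrobiopterin genes, the body ratio was 0.462 (0.279 to 0.742) for Pcbd1, which regenerates the cofactor, and the TSS ratio was 0.411 (0.320 to 0.524) for Spr, which makes it in the last step. Gchfr, which encodes the feedback regulator of the Gch1 enzyme, held 51 untreated and 11 LPS tags at its TSS, a ratio of 0.263 (0.124 to 0.511), where Gch1 itself was at 2.42. The Gchfr body held 12 untreated and 11 LPS tags, a ratio of 1.12 (0.447 to 2.77).

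Nostrin, for a trafficking protein of endothelial nitric oxide synthase, was lower in the body (0.478) and at the TSS (0.462), Nos1ap, an adaptor of the neuronal enzyme, at the TSS (0.382), and Gamt, for creatine synthesis, in the body (0.454). The neuronal and endothelial synthases themselves carried little Ser5 at the TSS, where Nos1 held 4 untreated and 2 LPS tags and Nos3 held 1 and 3. The Nos3 body held 76 untreated and 35 LPS tags, a ratio of 0.561 (0.365 to 0.848). Untreated Ser5 was 1.12 times the input (0.797 to 1.58) in the Nos3 body and 0.419 times (0.349 to 0.501) in the Nos1 body. Of the partners of the 6 genes, Asl, which completes the return of citrulline to arginine, had a body ratio of 0.875 (0.672 to 1.14), and Slc7a1, for the constitutive arginine transporter CAT1, one of 1.35 (1.21 to 1.52). At the TSS the ratio was 0.626 (0.502 to 0.778) for Asl, from 249 to 128 tags, and 0.918 (0.717 to 1.17) for Slc7a1.

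**Figure D4:**
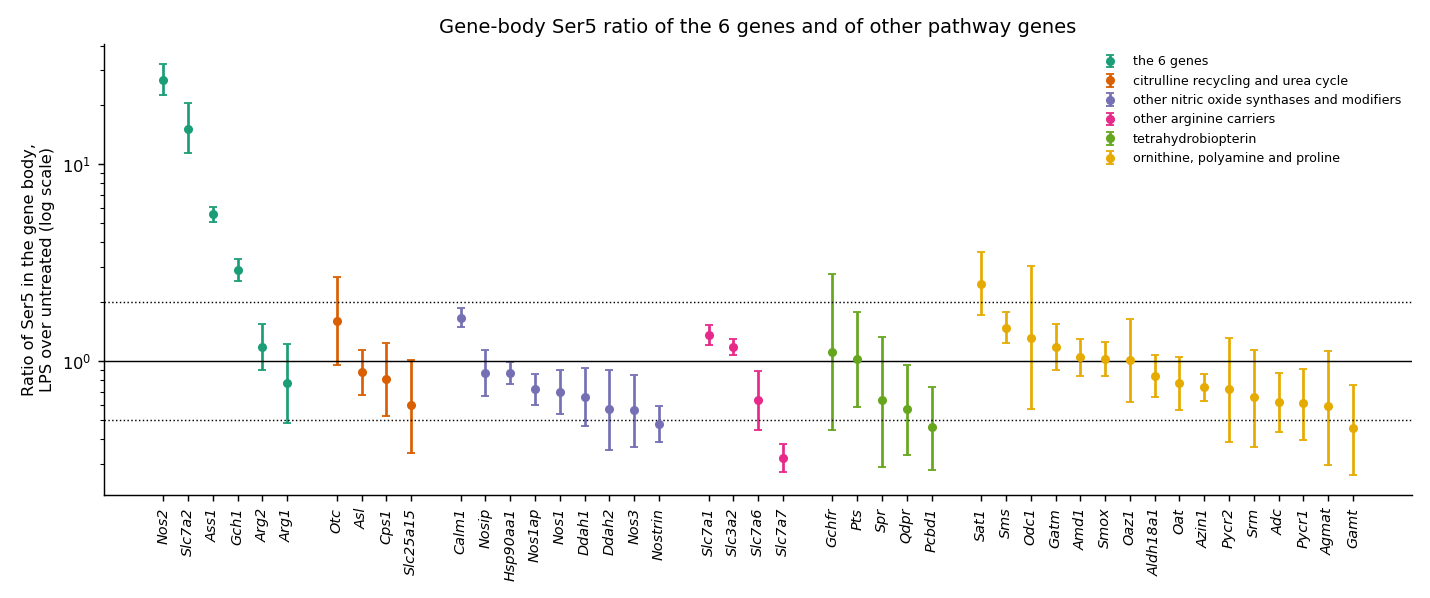
Ratio of Ser5 after LPS to untreated in the gene body (log axis) for the 6 genes and for 38 other genes of arginine, nitric oxide, tetrahydrobiopterin and polyamine metabolism, grouped by list; bars are 95% intervals for counting error and dotted lines mark ratios of 2 and 0.5. Sat1 (2.46) is the only other gene above the upper line, and Slc7a7 (0.321) is the lowest.

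For each of the 6 genes, the genes with the most similar Ser5 pattern were found among 16828 protein-coding genes by the distance over 4 values, log2(TPM per kb + 0.1) at the TSS and in the body in both Ser5 libraries. Nearest to Nos2 were Ptgs2, the inducible cyclooxygenase (distance 0.875 on the log2 scale), Cd69 (1.10) and Edn1 (1.23). Those nearest to Ass1 were Ube2l6 (0.425), Samhd1 (0.498) and Tap1 (0.528), and to Gch1 they were Sap30 (0.319), Tm9sf4 (0.440) and Tbk1 (0.441). Slc7a2 was nearest to Cish (0.355), Enpp4 (0.786) and Expi (0.864). The low genes were nearest to other low genes: Arg1 to 4932443L11Rik (0.394), Folr1 (0.433) and St5 (0.478), and Arg2 to Tmem176b (0.165), Sh2d6 (0.362) and Gm12216 (0.599). With 2 libraries the distances describe these libraries only.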

How the data were processed

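Ser5 ChIP-Seq of untreated and LPS-treated mouse macrophages and input DNA were used, 1 library each. Per the study's methods and the submitters' processing notes, the authors trimmed 76-base reads, aligned them to mm9 with Bowtie (unique matches with no more than 2 mismatches) and called peaks for each Ser5 library against the input with MACS at p 1e-05; versions were not given in the sources used here. The deposited tag files give positions and strands, other values not being used, and the deposited peak score is -10*log10 p, which reaches at most 3100. Tags were 45 bases long in the untreated Ser5 file, 30 in the LPS file and 36 in the input file, whereas the methods give 30 for untreated and 45 for LPS cells; the genes of the LPS check list were higher in the file labelled LPS.

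Each tag was counted at its 5′ end, duplicates included, with Python 3.11.15, numpy 2.4.6, pandas 2.3.3 and scipy 1.17.1. Genes came from GENCODE M1, and the tag positions lay within the chromosome lengths of the mm9 assembly (NCBIM37). TPM relates tags to all tags on chromosomes 1 to 19 and X. Tag counts have exact Poisson intervals and ratios have exact intervals conditional on the sum of tags. The simulated counts on which these intervals were tried were themselves Poisson, so that check could not show how the intervals hold for counts with duplicate tags. The intervals cover counting error only, and reads carry no molecular identifiers. No p-value was computed. Peaks overlapped a window by at least 1 bp. The 6 genes and the gene lists were chosen with earlier results of these data known; the other genes named are those of the lists at least 2 times higher or lower, their direct partners, neighbours that share a window, and the 3 nearest by pattern. Asl, Slc7a1, Nos1, Nos3 and Cd3d were named after their values were seen. Oaz2 and Spi1 were not matched by symbol, and 1 gene of the lists is not reported here and was left out of the counts.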

Additional observations from a re-analysis of the deposited data

How the results depend on the processing

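With 1 library per group there is no spread between replicates, and the precision is that of the tag counts, which is lowest for Arg1 and Arg2. No paired analysis was possible because each group held 1 library. Counting 1 tag per position and strand, moving tags 75 bp, scaling to tags outside peaks, keeping only positions whose 30-base sequence occurs once, other windows (500 bp and 2 kb), no minimum count and a fold limit of 1.5 left 4 of 6 genes higher in the body and 5 of 6 higher at the TSS, and no ratio called higher or lower changed direction. The window of 500 bp left 0 genes called lower at the TSS, as Arg1 then had too few tags. Untreated TSS peaks fell from 4 to 2 genes with peaks of p at most 1e-10, and LPS TSS peaks from 5 to 3 when the midpoint had to lie inside the window, since the long peaks of Gch1 and Ass1 are centred further downstream.

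Among the single ratios recomputed, 14 moved beyond their intervals and 136 did not. The Ass1 TSS ratio was 3.23 with 1 tag per position and strand and 4.41 with the window of 500 bp; the causes were not tested. Scaling to tags outside peaks, which are 49.9% of untreated Ser5, 46.4% of LPS and 95.5% of input tags, raised the ratios of Ser5 to input, for example from 51.6 to 106 for Ass1 at the TSS after LPS. Repeated 30-base sequences made up between 4.18% and 8.20% of positions in the 6 gene bodies. Under the same scaling and with 1 tag per position, both added after the data were seen, the other pathway genes gave 1 higher and 3 or 4 lower in the body and 0 higher and 4 lower at the TSS.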
